A study of Mus musculus with 15 samples.

Results

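The conditional knockout of the serotonin receptor gene *Htr4* was compared with its control inside the tagged cells of the ventral dentate gyrus (vDG) over all genes that could be tested. The comparison took 5 of the 15 libraries of the study, 3 from wild-type (WT) and 2 from conditional knockout (cKO) immunoprecipitates (IPs). WT mice were Drd3-Cre KI198::Rosa26-fsTRAP, and cKO mice carried Htr4-Floxed besides these alleles, so that all animals expressed the Cre recombinase and the tagged ribosomal protein EGFP-L10a. The Cre is driven by a BAC transgene of the *Drd3* gene and, in the dentate gyrus, marks granule cells and hilar mossy cells. Adult mice of 8 to 12 weeks were used, and each library came from tissue pooled over animals, of 3 mice for an IP and 2 mice for an input by the sample records and of 1 male and 1 female by the study's methods. Inputs are RNA of the whole vDG homogenate taken before the IP, and they again number 3 in WT and 2 in cKO. Nothing in the labels says how many litters or days of preparation the pools came from, so p-values measure only the spread between these pools, which may be technical. Of the label fields for the inputs, 1 names whole cortex, while their titles and region name the dentate gyrus.

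The 5-HT4 receptor is a membrane protein that, when serotonin binds, activates the stimulatory G protein Gs, which raises cAMP and through it the kinase PKA. Granule cells are the excitatory neurons that receive cortical input to the hippocampus, and mossy cells are excitatory neurons of the hilus that act back on them. In translating ribosome affinity purification (TRAP), an antibody against EGFP pulls down tagged ribosomes with the mRNAs they carry, so the IP reports mRNAs bound to ribosomes of Cre cells. A difference between genotypes in such a library can lie in mRNA amount, in ribosome loading, in the number of tagged cells or in RNA carried over from untagged cells. These cannot be told apart.

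Total counts on genes ranged from 22579586 to 27635237 in the 5 IPs and from 24600051 to 28098245 in the 5 vDG inputs. Values are given in CPM (a gene's counts scaled to a common library total), after TMM scaling, which corrects for differences in RNA composition. The quasi-likelihood test of edgeR (two-sided) was run on every gene, and the FDR is the Benjamini-Hochberg adjusted p over all genes tested. All 20 granule cell markers and 15 of 16 mossy cell markers passed edgeR's expression filter in the IPs. The summed level of the granule cell markers was 4880, 5073 and 5046 CPM in the WT IPs and 5292 and 5635 CPM in the cKO IPs. That of the mossy cell markers was 412, 382 and 386 CPM in WT and 394 and 376 CPM in cKO, so that the genotypes overlapped for mossy cells and both cKO IPs lay above WT for granule cells. By gene, 13 of the 15 mossy cell markers tested lay below 0 (median log2 fold change -0.32, 1 lower at an unadjusted p under 0.05), and without cKO replicate 1 the median was -0.41 with 2 lower. Of the granule cell markers 13 of 20 lay above 0 (median 0.16).

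Of 14300 genes tested in the IP, 10 were higher in cKO (0.0699%) and 50 were lower (0.35%) at an FDR under 0.1. The smallest FDR was 0.0618, so no gene passed an FDR of 0.05. At an unadjusted p under 0.05, 592 genes were higher (4.14%) and 1082 lower (7.57%), and the median log2 fold change over all genes was -0.0019. The 46 lower genes with a mean of at least 5 CPM fell by 0.65 to 1.13 on the log2 scale, and the 10 higher genes rose by 0.57 to 1.36. Each of the 60 genes had no overlap between the 3 WT and the 2 cKO IPs. Genes chosen by a small p are nearly bound to separate in this way, so neither this nor such remarks on single genes below are further evidence. The share of genes without overlap over all genes tested is not given here. A gene is said to be called, or to pass, by this edgeR test at an FDR under 0.1, and DESeq2 called 78 genes higher and 296 lower at the same FDR. The calls changed with single libraries. None remained without WT replicate 2 or without cKO replicate 1, and 4 others were made without cKO replicate 2, whereas 184 and 127 genes were called without WT replicate 1 and 3. In each of these 5 fits all 60 genes kept their direction, but groups that do not overlap could hardly change direction when 1 library is left out. With the trend of counts with exonic length removed, 43 genes were higher and 91 lower, and 59 of the 60 genes were among them.

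**Figure D1:**
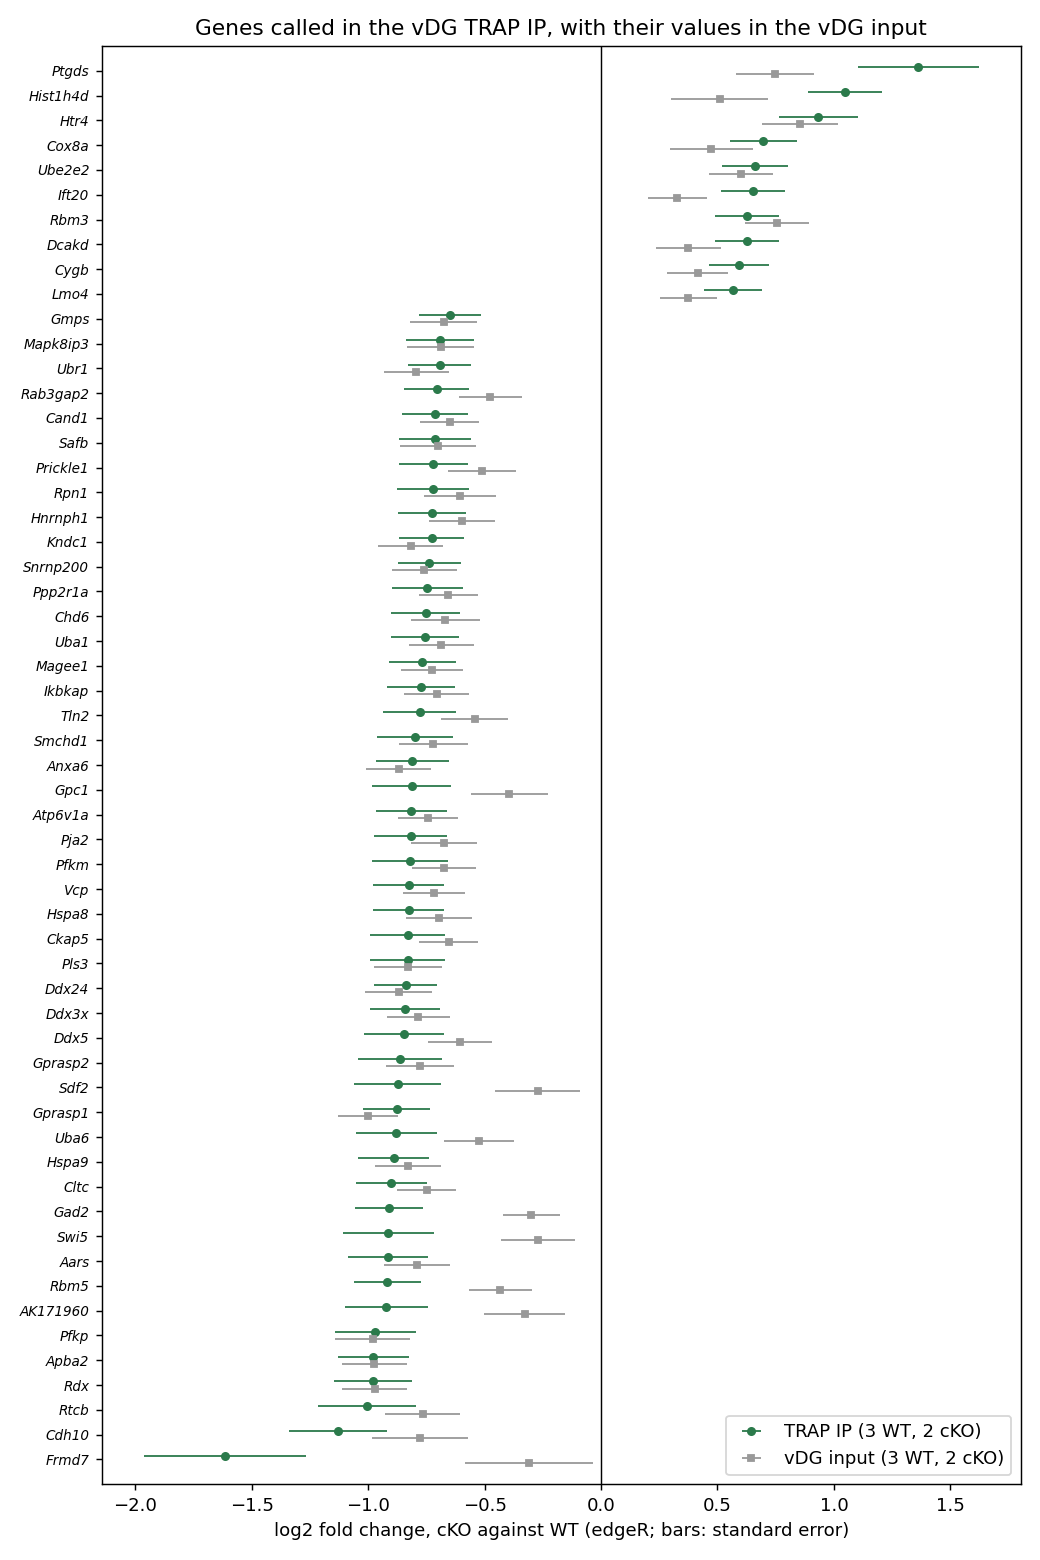
Log2 fold changes between cKO and WT (x axis, with standard errors) of 57 genes called in the vDG IP (y axis), in the IP (circles, 3 WT and 2 cKO libraries) and in the vDG input (squares, 3 WT and 2 cKO libraries); *Gpr141*, *Cdh6* and *Cartpt*, called at low counts, are left out. The 10 genes above 0 in the IP and the 47 below 0 lay on the same side in the input.

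The targeted gene itself and the pathway of its receptor came first. *Htr4* (ENSMUSG00000026322, chr18:62324204-62467802, plus strand of mm10) had 12.5, 14.8 and 14.3 CPM in the WT IPs and 28.1 and 24.96 in the cKO IPs (log2 fold change 0.93, SE 0.17, FDR = 0.0705). The cKO values both exceeded the highest WT value, and counts over the whole gene do not show whether exon 5, which is flanked by loxP sites, was read. Of 48 genes of the Gs and cAMP pathway that were tested (Gs subunits, adenylyl cyclases, phosphodiesterases, PKA subunits and cAMP targets), none passed in edgeR and 1 was called lower by DESeq2, 3 had an unadjusted p under 0.05 as higher and 4 as lower, and their median log2 fold change was 0.03. *Rapgef2*, a guanine nucleotide exchange factor for Rap, had 492, 403 and 461 CPM in the WT IPs and 280.4 and 361 in the cKO IPs (log2 fold change -0.50, FDR = 0.231). The cyclase *Adcy2* had a log2 fold change of -0.45 (FDR = 0.272), the PKA regulatory subunit *Prkar1a* of -0.42 (FDR = 0.336) and the phosphodiesterase *Pde4a* of 0.42 (FDR = 0.346). These 4 are the pathway's genes with the lowest p. Their groups did not overlap, but after that choice this is no further evidence. With the length trend removed, 9 of the 48 were higher and 4 lower at an unadjusted p under 0.05, and without WT replicate 3 the counts were 8 and 3.

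A gene outside that list but tied to PKA did pass. *Pja2* (ENSMUSG00000024083, chr17:64281005-64331916, minus strand), a RING ubiquitin ligase known to mark PKA regulatory subunits for degradation, had 1090, 839 and 874 CPM in the WT IPs and 463 and 597 in the cKO IPs (log2 fold change -0.82, SE 0.16, FDR = 0.0705). *Gprasp1* and *Gprasp2* of the GPCR-associated sorting protein family fell as well. *Gprasp1* (ENSMUSG00000043384, chrX:135742733-135803474, plus strand), which directs internalised receptors to lysosomes, had 569.7, 596 and 684 CPM in the WT IPs and 299.7 and 371 in the cKO IPs (log2 fold change -0.88, SE 0.14, FDR = 0.0618). Its neighbour *Gprasp2* (ENSMUSG00000072966, chrX:135839034-135844730, plus strand) had 70.1, 53.8 and 78.5 CPM in the WT IPs and 32.4 and 41.7 in the cKO IPs (log2 fold change -0.86, SE 0.18, FDR = 0.0864). The 9 members tested split, with 3 lower at an unadjusted p under 0.05, of which 2 passed the FDR, and with a median of 0.01. *Bhlhb9*, the third of these, had 78.3, 72.2 and 82.0 CPM in the WT IPs and 59.1 and 58.7 in the cKO IPs (log2 fold change -0.39, FDR = 0.306). In the annotation *Bhlhb9* overlaps both *Gprasp1* and *Gprasp2*, and *Armcx5* overlaps *Gprasp1*, all on the same strand, and the union mode of htseq-count that was used leaves out reads that fall on more than 1 gene. Of the 58 called genes found by symbol in the annotation, 19 overlapped another gene, 6 on the same strand and 13 on the opposite strand alone. Counting used the tool's default settings, which take the reads as stranded. Whether the library kit kept the strand is not given in the sources used here. Values of the overlapping genes are uncertain to that extent. For *Gprasp2* the call was also lost without WT replicate 3.

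Genes that handle RNA came next. Of 59 RNA helicases tested, which unwind RNA in splicing, transport and translation, 4 passed as lower, 15 were lower and 1 higher at an unadjusted p under 0.05 (25.4% lower, against 7.57% of all genes), and the median was -0.12. *Ddx5* (ENSMUSG00000020719, chr11:106780355-106789185, minus strand), a helicase of transcription and splicing, had 937, 712 and 666 CPM in the WT IPs and 365 and 494 in the cKO IPs (log2 fold change -0.84, SE 0.17, FDR = 0.0831). *Ddx3x* (ENSMUSG00000000787, chrX:13280970-13294052, plus strand), which helps ribosomes start on structured mRNAs, had 233, 179 and 229 CPM in the WT IPs and 112 and 127 in the cKO IPs (log2 fold change -0.84, SE 0.15, FDR = 0.0705). *Snrnp200*, the helicase that unwinds U4 from U6 in the spliceosome, had 229.6, 239 and 268 CPM in the WT IPs and 141 and 154 in the cKO IPs (log2 fold change -0.74, SE 0.13, FDR = 0.0705). The cKO IPs of these genes lay well below the WT range. *Ddx24*, the fourth helicase, had 85.9, 87.8 and 91.0 CPM in the WT IPs and 50.2 and 48.4 in the cKO IPs (log2 fold change -0.84, SE 0.14, FDR = 0.0618).

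Among 34 hnRNP proteins, which bind nascent RNA, 12 were lower and none higher at an unadjusted p under 0.05, with a median of -0.15, and *Hnrnph1* passed the FDR. It had 255, 195 and 218 CPM in the WT IPs and 129 and 140.3 in the cKO IPs (log2 fold change -0.73, SE 0.15, FDR = 0.0771). *Matr3*, *Hnrnpu* and *Hnrnph2* came closest below it, with log2 fold changes of -0.64 (FDR = 0.11), -0.60 (FDR = 0.116) and -0.74 (FDR = 0.153). Other splicing genes had counts that changed with WT replicate 3. Of 71 SR and RNA-binding-motif proteins, 3 were higher and 4 lower at an unadjusted p under 0.05, and of 57 snRNP proteins 3 were higher and 2 lower. Without WT replicate 3 these were 12 and 6 for the former and 7 and 7 for the latter, with 962 of all genes higher and 1167 lower. *Rbm5* (ENSMUSG00000032580, chr9:107740371-107770996, minus strand), a regulator of splice site choice, had 122.6, 127 and 151 CPM in the WT IPs and 70.1 and 71.1 in the cKO IPs (log2 fold change -0.92, SE 0.14, FDR = 0.0618). In the opposite direction, *Rbm3* (ENSMUSG00000031167, chrX:8138975-8145880, minus strand), an RNA-binding protein induced by cold, had 36.1, 36.9 and 35.8 CPM in the WT IPs and 54.9 and 57.2 in the cKO IPs (log2 fold change 0.63, SE 0.14, FDR = 0.0987). The cKO IPs stood apart from WT in both genes, whose directions were opposite.

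Genes of translation showed few calls. *Aars*, alanyl-tRNA synthetase, was the one of 39 tRNA synthetases to pass and had 80.7, 65.9 and 67.5 CPM in the WT IPs and 31.8 and 43.9 in the cKO IPs (log2 fold change -0.92, SE 0.17, FDR = 0.0705). *Rtcb*, the ligase that joins tRNA pieces after their intron is removed, had 48.7, 37.9 and 28.4 CPM in the WT IPs and 17.2 and 20.9 in the cKO IPs (log2 fold change -1.005, SE 0.21, FDR = 0.0864). *Ikbkap*, the scaffold of the Elongator complex that modifies tRNA wobble bases, had 83.3, 72.3 and 77.6 CPM in the WT IPs and 41.7 and 49.1 in the cKO IPs (log2 fold change -0.77, SE 0.15, FDR = 0.0705). None of 65 initiation and elongation factors passed in edgeR, with 6 higher and 7 lower at an unadjusted p under 0.05, and DESeq2 called 1 higher and 2 lower. Of 82 cytosolic ribosomal proteins, none passed in edgeR and 2 were called higher by DESeq2, 6 were higher and 0 lower at an unadjusted p under 0.05, and the median was 0.05. That split turned with 1 library, since without WT replicate 3 there were 5 higher and 20 lower. The ribosomal protein gene *Rpl10a*, whose coding sequence the tag also carries, had 111, 109 and 104 CPM in the WT IPs and 142 and 147 in the cKO IPs (log2 fold change 0.42, FDR = 0.236), and reads of the gene and of the transgene were not told apart here.

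Protein folding and turnover formed the next group. Of 78 Hsp70, Hsp90 and Hsp40 chaperones, 2 passed as lower, 14 were lower and none higher at an unadjusted p under 0.05, and the median was -0.10. *Hspa8* (ENSMUSG00000015656, chr9:40800984-40810087, plus strand), the constitutive Hsp70 of the cytosol that also strips clathrin from vesicles, had 1482, 1236 and 1248 CPM in the WT IPs and 632 and 859 in the cKO IPs (log2 fold change -0.83, SE 0.15, FDR = 0.0705). *Hspa9*, the Hsp70 of mitochondria, had 153, 126 and 117 CPM in the WT IPs and 67.2 and 75.1 in the cKO IPs (log2 fold change -0.89, SE 0.15, FDR = 0.0654). *Hsp90ab1* and *Hspa2* did not pass, with 1888, 1641 and 1786 CPM in the WT IPs and 1021 and 1298 in the cKO IPs for the former (log2 fold change -0.61, FDR = 0.116) and a log2 fold change of -0.57 for the latter (FDR = 0.116). In each of these 4 genes the highest cKO value stayed below the lowest WT value.

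*Vcp* (ENSMUSG00000028452, chr4:42979963-43000507, minus strand), the ATPase that pulls ubiquitylated proteins out of membranes and complexes, had 174, 143 and 168 CPM in the WT IPs and 80.2 and 102 in the cKO IPs (log2 fold change -0.83, SE 0.15, FDR = 0.0705). It was the called member of 35 genes of endoplasmic reticulum folding, of which 9 were lower and none higher at an unadjusted p under 0.05 (median -0.27). *Rpn1*, a subunit of the oligosaccharyltransferase, had 33.3, 32.8 and 36.7 CPM in the WT IPs and 21.7 and 19.9 in the cKO IPs (log2 fold change -0.72, FDR = 0.0971). *Sdf2* had 18.8, 20.7 and 16.7 CPM in the WT IPs and 10.5 and 10.0 in the cKO IPs (log2 fold change -0.87, FDR = 0.0971). The 2 enzymes that activate ubiquitin at the head of its cascade were both lower. *Uba1* (ENSMUSG00000001924, chrX:20658326-20683179, plus strand) had 379, 315 and 393 CPM in the WT IPs and 195 and 233 in the cKO IPs (log2 fold change -0.76, SE 0.15, FDR = 0.0705), and *Uba6* had 38.0, 39.7 and 48.2 CPM in the WT IPs and 19.8 and 25.8 in the cKO IPs (log2 fold change -0.88, SE 0.17, FDR = 0.0705). Other called genes of ubiquitylation lay in both directions. The ligase *Ubr1*, which reads the N-terminus of proteins, had 84.8, 82.5 and 86.0 CPM in the WT IPs and 50.3 and 54.1 in the cKO IPs (log2 fold change -0.69, FDR = 0.0705). The cullin exchange factor *Cand1* had 300.0, 243 and 278 CPM in the WT IPs and 157 and 177 in the cKO IPs (log2 fold change -0.71, FDR = 0.0705), while the conjugating enzyme *Ube2e2* had 83.3, 67.7 and 68.8 CPM in the WT IPs and 110.2 and 121 in the cKO IPs (log2 fold change 0.66, SE 0.14, FDR = 0.0971). The list of 223 ubiquitin enzymes includes *Uba1*, *Uba6* and *Ube2e2*, its 3 called members, but not *Ubr1* and *Cand1*, which are in no list. In it 19 genes were higher and 16 lower at an unadjusted p under 0.05, and without its 5 *Uba* genes 19 and 14 of 218. With the length trend removed, 36 genes of the list were higher and 11 lower at that p, with 1037 and 862 of all genes. Of 47 proteasome subunits 3 were higher and 1 lower, with no call in edgeR and 1 higher in DESeq2.

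**Figure D2:**
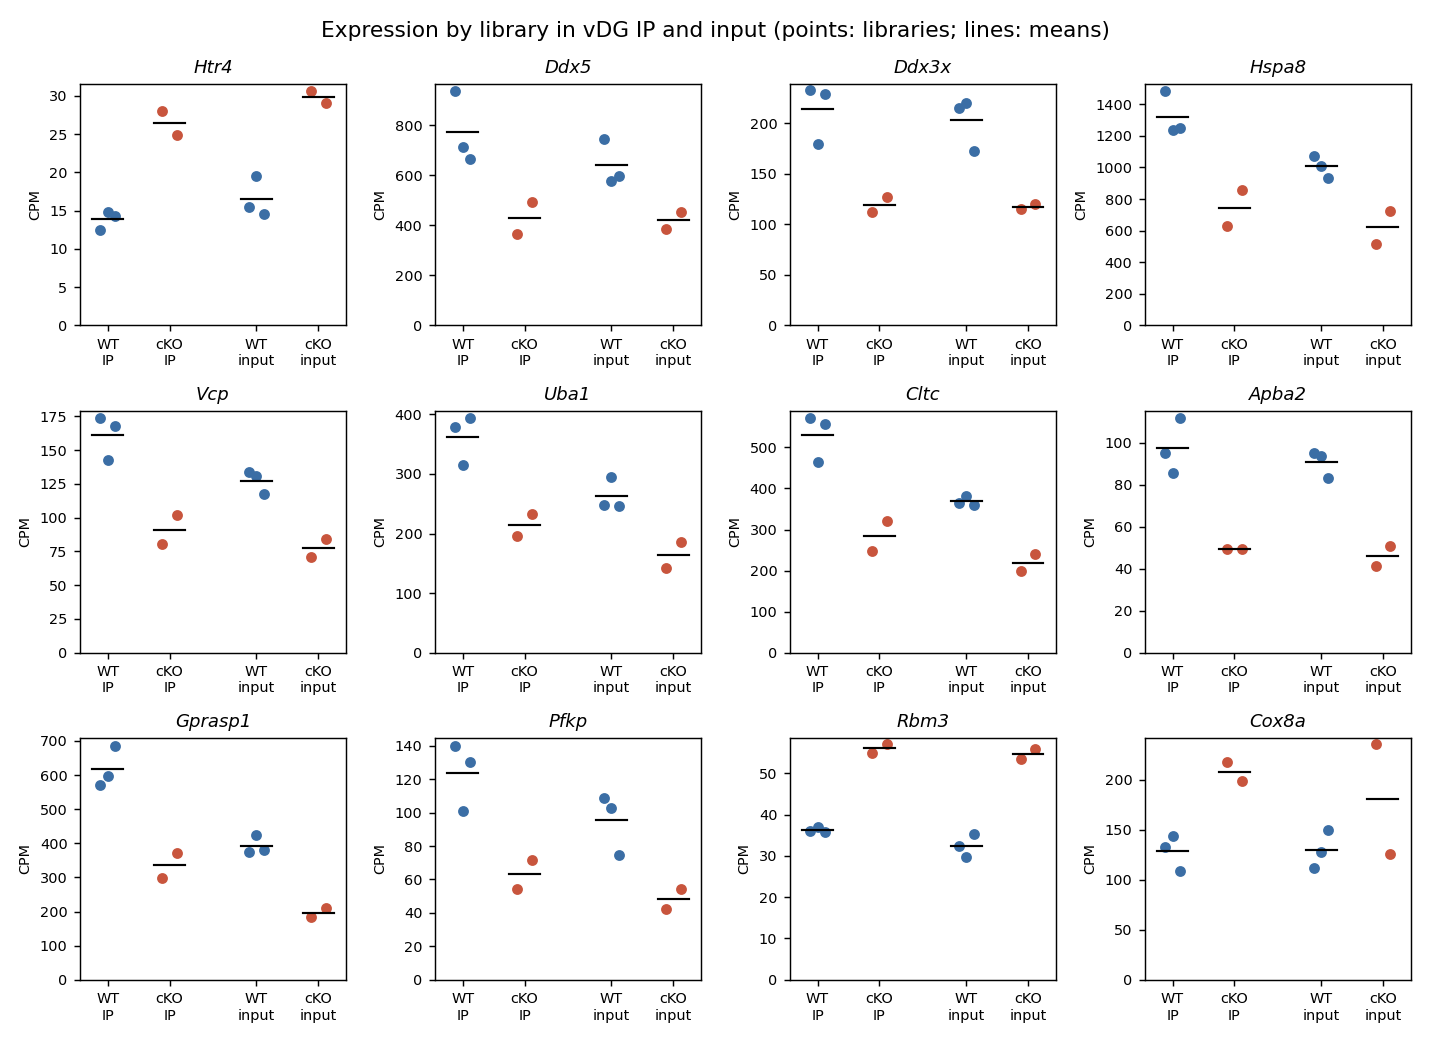
CPM (y axis, from 0) of 12 genes in each library of the vDG IP and input, for WT (blue, 3 libraries) and cKO (red, 2 libraries); lines are means. In the IP, *Htr4*, *Rbm3* and *Cox8a* were higher in both cKO libraries than in any WT library and the other 9 genes lower, and in the input only *Cox8a* overlapped.

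Membrane traffic and synaptic release held few calls. *Cltc* (ENSMUSG00000047126, chr11:86694351-86757565, minus strand), the heavy chain of clathrin, had 571, 465 and 558 CPM in the WT IPs and 248 and 321 in the cKO IPs (log2 fold change -0.90, SE 0.15, FDR = 0.0654). It was the called member of 37 genes of clathrin endocytosis, of which 6 were lower and none higher at an unadjusted p under 0.05. *Apba2* (ENSMUSG00000030519, chr7:64501706-64753878, plus strand), an adaptor that binds Munc18 and the amyloid precursor protein, had 95.2, 85.4 and 112 CPM in the WT IPs and 49.3 and 49.6 in the cKO IPs (log2 fold change -0.98, SE 0.15, FDR = 0.0618). Of 62 genes of synaptic vesicle release, 18 were lower and 2 higher (median -0.13), with *Sv2b* next at 490.2, 434 and 655 CPM in the WT IPs and 327 and 311 in the cKO IPs (log2 fold change -0.72, FDR = 0.116). *Mapk8ip3*, which links kinesin to its cargo, had 317, 313 and 367 CPM in the WT IPs and 182 and 229.6 in the cKO IPs (log2 fold change -0.69, SE 0.15, FDR = 0.0877), and *Rab3gap2*, part of a regulator of Rab3 and Rab18, had 109, 98.3 and 114 CPM in the WT IPs and 62.9 and 68.6 in the cKO IPs (log2 fold change -0.71, FDR = 0.0705). Of 138 Rab GTPases and sorting nexins, 9 were higher and 5 lower at an unadjusted p under 0.05.

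Energy supply and ion pumps came next. *Pfkp* (ENSMUSG00000021196, chr13:6579768-6648777, minus strand) and *Pfkm* (ENSMUSG00000033065, chr15:98092589-98132447, plus strand) encode isoforms of phosphofructokinase, the committed step of glycolysis. *Pfkp* had 139.8, 101 and 130.3 CPM in the WT IPs and 54.4 and 71.9 in the cKO IPs (log2 fold change -0.97, SE 0.17, FDR = 0.0705), and *Pfkm* had 133, 106 and 113 CPM in the WT IPs and 56.8 and 75.7 in the cKO IPs (log2 fold change -0.82, SE 0.16, FDR = 0.0705). Both cKO IPs lay below WT in each. Of 37 genes of glycolysis and the citric acid cycle, 12 were lower and none higher at an unadjusted p under 0.05 (median -0.14), and *Pkm*, pyruvate kinase, had a log2 fold change of -0.60 (FDR = 0.135). Of 44 genes of complex I of oxidative phosphorylation, 2 were higher and 1 lower (median 0.05), and without WT replicate 3 these were 2 and 9 (median -0.15). *Cox8a* (ENSMUSG00000035885, chr19:7215158-7217616, minus strand), a small subunit of complex IV, had 132, 144 and 109 CPM in the WT IPs and 218 and 198 in the cKO IPs (log2 fold change 0.70, SE 0.14, FDR = 0.0831).

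*Atp6v1a* (ENSMUSG00000052459, chr16:44085402-44139705, minus strand), the catalytic subunit of the proton pump of vesicles and lysosomes, had 1237, 1075 and 1196 CPM in the WT IPs and 560.2 and 770.0 in the cKO IPs (log2 fold change -0.81, SE 0.15, FDR = 0.0705). Of 19 subunits of that pump, 6 were lower and 1 higher at an unadjusted p under 0.05, and these were 11 and 2 without WT replicate 3 and 1 and 0 without cKO replicate 1. Sodium pump and chloride transporter genes, which restore ion gradients after firing, had no call in edgeR and 3 lower in DESeq2, and 10 of 25 were lower and none higher at an unadjusted p under 0.05, with a median of -0.30. *Clcn3*, a chloride exchanger of endosomes, had 136, 139 and 156 CPM in the WT IPs and 102 and 110.3 in the cKO IPs (log2 fold change -0.43, FDR = 0.249).

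No gene of the lists of ion channels and of glutamate and GABA receptors that follow, of the postsynaptic scaffolds or of the immediate early genes passed in edgeR. DESeq2 called 2 potassium, 1 sodium and 1 calcium channel gene and 1 immediate early gene lower, and of the scaffolds 1 higher and 2 lower. Of 69 potassium channel genes, 8 were lower (11.6%, against 7.57% of all genes) and 1 higher at an unadjusted p under 0.05, with a median of -0.10, and without cKO replicate 1 these were 2 and 0. *Kcnq5*, a subunit of the M-current, had 94.9, 78.7 and 112 CPM in the WT IPs and 67.1 and 66.1 in the cKO IPs (log2 fold change -0.52, FDR = 0.247). Of 22 voltage-gated calcium channel genes 5 were lower, of 11 sodium channel genes 2, of 18 ionotropic glutamate receptor genes 2 and of 14 GABA receptor genes 3, and none in these lists was higher. Without cKO replicate 1 these counts were 1, 3, 0 and 1, with 525 of all genes lower in place of 1082. *Gria1*, an AMPA receptor subunit, had 658, 704 and 728 CPM in the WT IPs and 539 and 567 in the cKO IPs (log2 fold change -0.33, FDR = 0.334). Of 33 postsynaptic scaffold genes, 6 were higher and 2 lower, and without cKO replicate 1 these were 1 and 1. Of 28 immediate early genes, which neuronal firing induces, 4 were lower (14.3%) and none higher, the median was -0.07 and 12 lay above 0. Without cKO replicate 1, 2 were lower and the median was 0.01. The 4 of lowest p were *Nr4a2*, *Dusp6*, *Nr4a3* and *Nr4a1*, with log2 fold changes of -0.69, -0.77, -0.31 and -0.55 and FDRs of 0.187, 0.383, 0.395 and 0.414.

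The cytoskeleton divided. *Rdx* (ENSMUSG00000032050, chr9:52047173-52088735, plus strand), radixin, which ties actin to the membrane, had 66.6, 53.8 and 60.6 CPM in the WT IPs and 26.2 and 34.9 in the cKO IPs (log2 fold change -0.98, SE 0.17, FDR = 0.0654). *Tln2*, talin that couples integrins to actin, had 174, 149 and 182 CPM in the WT IPs and 84.3 and 112 in the cKO IPs (log2 fold change -0.78, FDR = 0.0771). *Pls3*, an actin bundling protein, had 305, 228 and 258 CPM in the WT IPs and 130.1 and 166 in the cKO IPs (log2 fold change -0.83, FDR = 0.0705). In these genes both cKO IPs lay below WT, as in *Ckap5*, a microtubule polymerase, with 267, 229.9 and 285 CPM in the WT IPs and 123.1 and 170.0 in the cKO IPs (log2 fold change -0.83, FDR = 0.0705). Yet of 54 genes of the actin and ERM list 9 were higher and 3 lower at an unadjusted p under 0.05, with a median of 0.13. *Cfl1*, cofilin, which severs actin filaments, had 714, 619.8 and 595 CPM in the WT IPs and 870.0 and 966 in the cKO IPs (log2 fold change 0.51, FDR = 0.155). *Pfn1*, profilin, had 144, 142 and 153 CPM in the WT IPs and 192 and 203 in the cKO IPs (log2 fold change 0.43, FDR = 0.225).

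Cadherins had 2 calls, both lower in cKO, as were 50 of the 60 calls over all genes. *Cdh10* (ENSMUSG00000022321, chr15:18818947-19014236, plus strand), a type II cadherin, had 17.6, 21.7 and 27.7 CPM in the WT IPs and 9.99 and 10.4 in the cKO IPs (log2 fold change -1.13, SE 0.21, FDR = 0.0705). Of 90 cadherin and protocadherin genes 16 were lower and 1 higher at an unadjusted p under 0.05 (median -0.24). *Cdh10* and *Cdh6* passed the FDR, but *Cdh6*, with 0 counts in both cKO IPs, met the expression filter through the WT IPs alone. Of 62 axon guidance genes, 13 were lower and none higher at an unadjusted p under 0.05 (median -0.26), none passed in edgeR and 3 were called lower by DESeq2, with *Ephb6*, an Eph receptor, first at 11.1, 16.7 and 13.2 CPM in the WT IPs and 6.98 and 7.88 in the cKO IPs (log2 fold change -0.88, FDR = 0.163). *Gpc1* and *Prickle1* passed and belong to no list. *Gpc1*, a heparan sulfate proteoglycan, had 26.4, 25.2 and 22.7 CPM in the WT IPs and 13.7 and 14.4 in the cKO IPs (log2 fold change -0.81, SE 0.17, FDR = 0.0864), and *Prickle1*, of the planar polarity pathway, had 94.6, 89.8 and 93.0 CPM in the WT IPs and 49.4 and 62.8 in the cKO IPs (log2 fold change -0.72, FDR = 0.0831). Members of the protocadherin clusters share exons, so that single members of that list are uncertain.

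Neuropeptide genes and those that process them were lower in 8 of 21 cases at an unadjusted p under 0.05 and higher in none (median -0.30), with no call in edgeR and 1 lower in DESeq2. Markers of interneurons, which express several neuropeptides, were lower in 3 of 16 cases and higher in none, and their summed level was 1043, 1073 and 1292 CPM in the WT IPs and 952 and 971 CPM in the cKO IPs, with no overlap. Of the 21 genes 3 are in both lists, and none of these was among the 8, which left 8 of 18 lower without them (median -0.32). The part of interneurons in the lower neuropeptide genes was not tested. *Cpe*, the carboxypeptidase that trims prohormones, had 368, 347 and 428 CPM in the WT IPs and 271 and 264 in the cKO IPs (log2 fold change -0.51, FDR = 0.187). *Cartpt* (ENSMUSG00000021647, chr13:99898484-99900683, minus strand), the precursor of the CART peptide, is outside that list and passed at low counts. It had 49, 49 and 25 counts in the WT IPs and 0 and 4 in the cKO IPs (log2 fold change -4.12, SE 0.86, FDR = 0.0864), so that the cKO IPs lay far below WT. In the vDG inputs it had 22, 28 and 32 counts in WT and 20 and 9 in cKO.

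The promoter of *Cartpt* is shown because cAMP acts on genes through the cAMP response element, to which the factor CREB binds, and because it was the one promoter of a called gene that held the full element. The RefSeq promoter table of GRCm38.p6, which holds 300 bases per start site (250 upstream and 50 downstream), matched 47 of the 60 called genes by symbol. The palindrome TGACGTCA, read on both strands, lay in the promoter of 1 of these 47 genes (2.13%), of 373 of the 10396 genes tested in the IP that the table holds (3.59%) and of 549 of all its 27025 genes (2.03%). Its first part TGACGT, which every full element also holds, lay in promoters of 10 of the 47 called genes (21.3%), of 1366 of the genes tested (13.1%) and of 2263 of all genes (8.37%). The genes tested are the nearer comparison, since called genes are all expressed in the IP. The 10 were *Cartpt*, *Ddx3x*, *Gprasp1*, *Hnrnph1*, *Pja2*, *Sdf2*, *Smchd1* and *Vcp* among the lower genes and *Cox8a* and *Ift20* among the higher. Counted by start site, 11 of 67 promoters of called genes (16.4%), 1482 of 13358 of genes tested (11.1%) and 2468 of all 32851 (7.51%) held it. Promoters of 3 of these genes follow, 5′ to 3′ on the strand of the gene, with the full element TGACGTCA in capitals for *Cartpt* and its first part TGACGT in capitals for the others, of *Cartpt* (chr13:99900634-99900933, minus strand), *Gprasp1* (chrX:135742442-135742741, plus strand) and *Vcp* (chr4:43000458-43000757, minus strand). The capitals start 112, 4 and 114 bases upstream of the start site in *Cartpt*, *Gprasp1* and *Vcp*. In the annotation *Armcx5*, with a log2 fold change of 0.40 in the IP (FDR = 0.657), starts at the same base as *Gprasp1*. The window of *Gprasp1* is thus not particular to that gene.
Cartpt: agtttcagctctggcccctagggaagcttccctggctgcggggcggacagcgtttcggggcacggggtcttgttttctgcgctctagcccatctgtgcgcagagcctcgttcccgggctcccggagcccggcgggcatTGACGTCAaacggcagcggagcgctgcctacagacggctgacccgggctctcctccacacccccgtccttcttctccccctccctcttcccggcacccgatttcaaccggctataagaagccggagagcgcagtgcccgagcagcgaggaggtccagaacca
Gprasp1: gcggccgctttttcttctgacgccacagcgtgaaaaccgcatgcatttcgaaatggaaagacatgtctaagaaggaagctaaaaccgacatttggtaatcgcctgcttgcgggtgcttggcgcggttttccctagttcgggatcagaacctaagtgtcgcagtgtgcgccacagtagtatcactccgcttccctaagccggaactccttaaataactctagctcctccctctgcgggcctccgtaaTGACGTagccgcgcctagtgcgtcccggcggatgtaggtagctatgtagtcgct
Vcp: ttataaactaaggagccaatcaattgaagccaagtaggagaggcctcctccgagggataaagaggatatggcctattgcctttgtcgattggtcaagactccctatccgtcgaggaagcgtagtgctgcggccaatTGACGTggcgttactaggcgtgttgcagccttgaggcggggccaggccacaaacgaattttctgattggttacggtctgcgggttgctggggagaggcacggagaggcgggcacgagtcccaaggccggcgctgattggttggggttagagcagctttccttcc
A match describes the letters of these windows and is not a measured site.

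Other genes were called at low counts or had none in cKO. *Gpr141* (ENSMUSG00000053101, chr13:19749682-19824257, minus strand), an orphan G protein-coupled receptor, had 17, 13 and 19 counts in the WT IPs and 0 in both cKO IPs (FDR = 0.0987). The same held in all 6 cKO libraries of the study, which had 0 counts each, against 17, 14 and 12 in the WT vDG inputs and 16, 16 and 21 in the WT inputs of the dorsal dentate gyrus (dDG). Against a floor of 3 counts over the cKO group it was at least 9.58-fold lower in the IP, 9.42-fold in the vDG input and 11.4-fold in the dDG input. It was the only gene tested in the IP with 0 counts in all 6 cKO libraries and counts in all 9 WT libraries. *Cdh6* (ENSMUSG00000039385, chr15:13034200-13173639, minus strand) had 14, 24 and 15 counts in the WT IPs and 0 in both cKO IPs (FDR = 0.0971), at least 10.4-fold lower, whereas the vDG inputs held 38, 80 and 69 in WT and 40 and 38 in cKO. *Frmd7* had 109, 114 and 86 counts in the WT IPs and 28 and 31 in the cKO IPs (log2 fold change -1.62, SE 0.35, FDR = 0.0971). *Gpr141* and *Cdh6* met the expression filter through the WT IPs alone, as did *Cartpt* with 0 and 4 counts in cKO. Their FDRs rest on that, and a filter of at least 10 counts in every library leaves them out. The calls of *Gpr141* and *Cdh6* were also lost without WT replicate 3 and that of *Frmd7* without WT replicate 1. Besides *Gpr141* and *Cdh6*, *Ddx60* and *AK140512*, picked out here after their values were seen, had 0 counts in both cKO IPs without a call. DESeq2 gave no adjusted p for *Gpr141*, *Cdh6*, *Cartpt*, *Frmd7* and *Ptgds*. Intervals and floors cover counting error only, since no molecular identifiers are named.

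**Figure D3:**
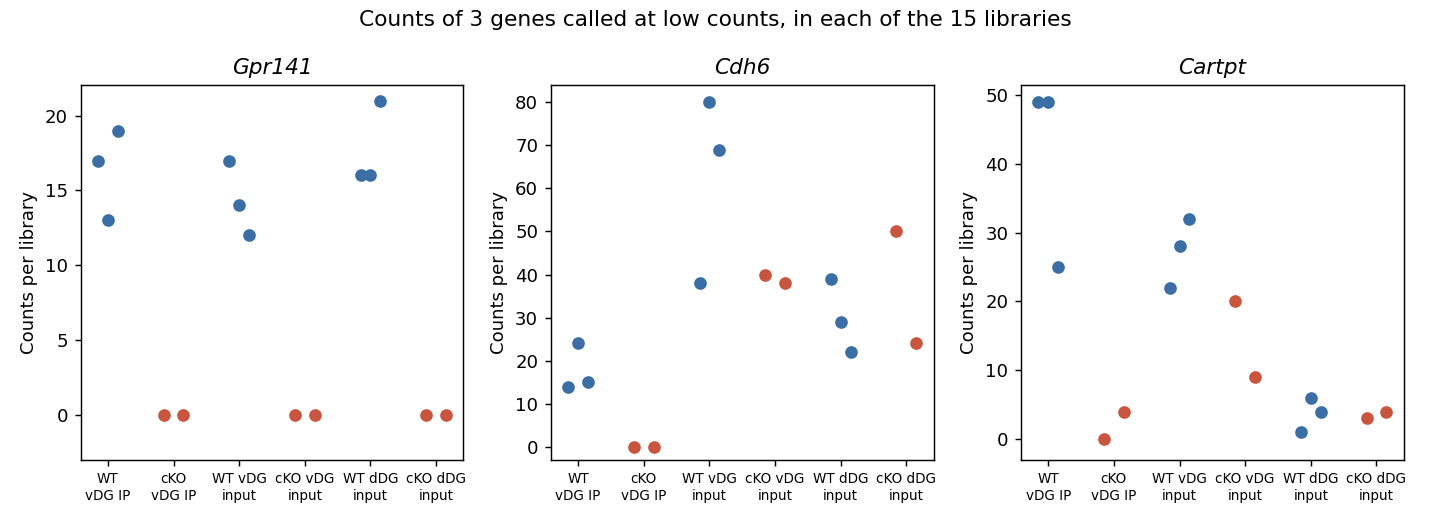
Counts per library (y axis) of *Gpr141*, *Cdh6* and *Cartpt* in the 15 libraries, by group, for WT (blue, 3 libraries per group) and cKO (red, 2 per group). *Gpr141* was at 0 in all 6 cKO libraries, *Cdh6* in the cKO IPs alone.

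Chromatin genes were called in both directions. *Hist1h4d* (ENSMUSG00000061482, chr13:23581598-23581990, plus strand), an H4 histone gene, had 68.9, 80.7 and 54.5 CPM in the WT IPs and 144.8 and 136 in the cKO IPs (log2 fold change 1.05, SE 0.16, FDR = 0.0618). Of 37 replication-dependent histone genes, 9 were higher and none lower at an unadjusted p under 0.05, the median was 0.49, and *Hist2h4* had 4.66, 4.59 and 3.19 CPM in the WT IPs and 8.44 and 8.15 in the cKO IPs (log2 fold change 1.0, FDR = 0.143). Copies of these genes are near identical, so the counting could split their reads and single copies are uncertain. Of 18 histone variants, which do not depend on replication, 4 were higher and none lower at an unadjusted p under 0.05 (median 0.23), with no call in edgeR or DESeq2, and *H3f3b* had 143, 136 and 95.5 CPM in the WT IPs and 178 and 167 in the cKO IPs (log2 fold change 0.47, FDR = 0.309). The chromatin remodeler *Chd6* had 101, 107 and 128 CPM in the WT IPs and 65.2 and 68.1 in the cKO IPs (log2 fold change -0.75, FDR = 0.0705). *Smchd1*, which acts in X inactivation, had 78.4, 69.1 and 81.2 CPM in the WT IPs and 36.9 and 50.7 in the cKO IPs (log2 fold change -0.80, FDR = 0.0831). The transcription cofactor *Lmo4* (ENSMUSG00000028266, chr3:144188530-144205220, minus strand) had 265, 253 and 245 CPM in the WT IPs and 372 and 381 in the cKO IPs (log2 fold change 0.57, SE 0.12, FDR = 0.0987), with both cKO IPs above WT.

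The other higher genes had separate roles. *Ptgds*, prostaglandin D synthase, had 4.36, 4.26 and 3.12 CPM in the WT IPs and 7.91 and 12.2 in the cKO IPs (log2 fold change 1.36, SE 0.26, FDR = 0.0705). The choroid plexus and meninges are known for high levels of it. In the vDG inputs *Ptgds* had 39.0, 59.8 and 61.4 CPM in WT and 75.8 and 103 in cKO, and carry-over into the IPs was not tested. *Cygb*, a globin, had 115, 127 and 117 CPM in the WT IPs and 189 and 171 in the cKO IPs (log2 fold change 0.59, SE 0.13, FDR = 0.0987). *Ift20*, of intraflagellar transport, had 70.6, 82.7 and 81.9 CPM in the WT IPs and 117 and 129 in the cKO IPs (log2 fold change 0.65, FDR = 0.0864). *Dcakd* had 142, 137 and 113 CPM in the WT IPs and 203 and 201 in the cKO IPs (log2 fold change 0.63, FDR = 0.0987). Of 79 MAP kinase pathway genes, 7 were higher and 1 lower at an unadjusted p under 0.05, with no call in edgeR and 3 higher in DESeq2. *Ksr1*, a scaffold of the ERK cascade, had 52.0, 50.4 and 48.9 CPM in the WT IPs and 69.6 and 74.4 in the cKO IPs (log2 fold change 0.51, FDR = 0.176).

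**Figure D4:**
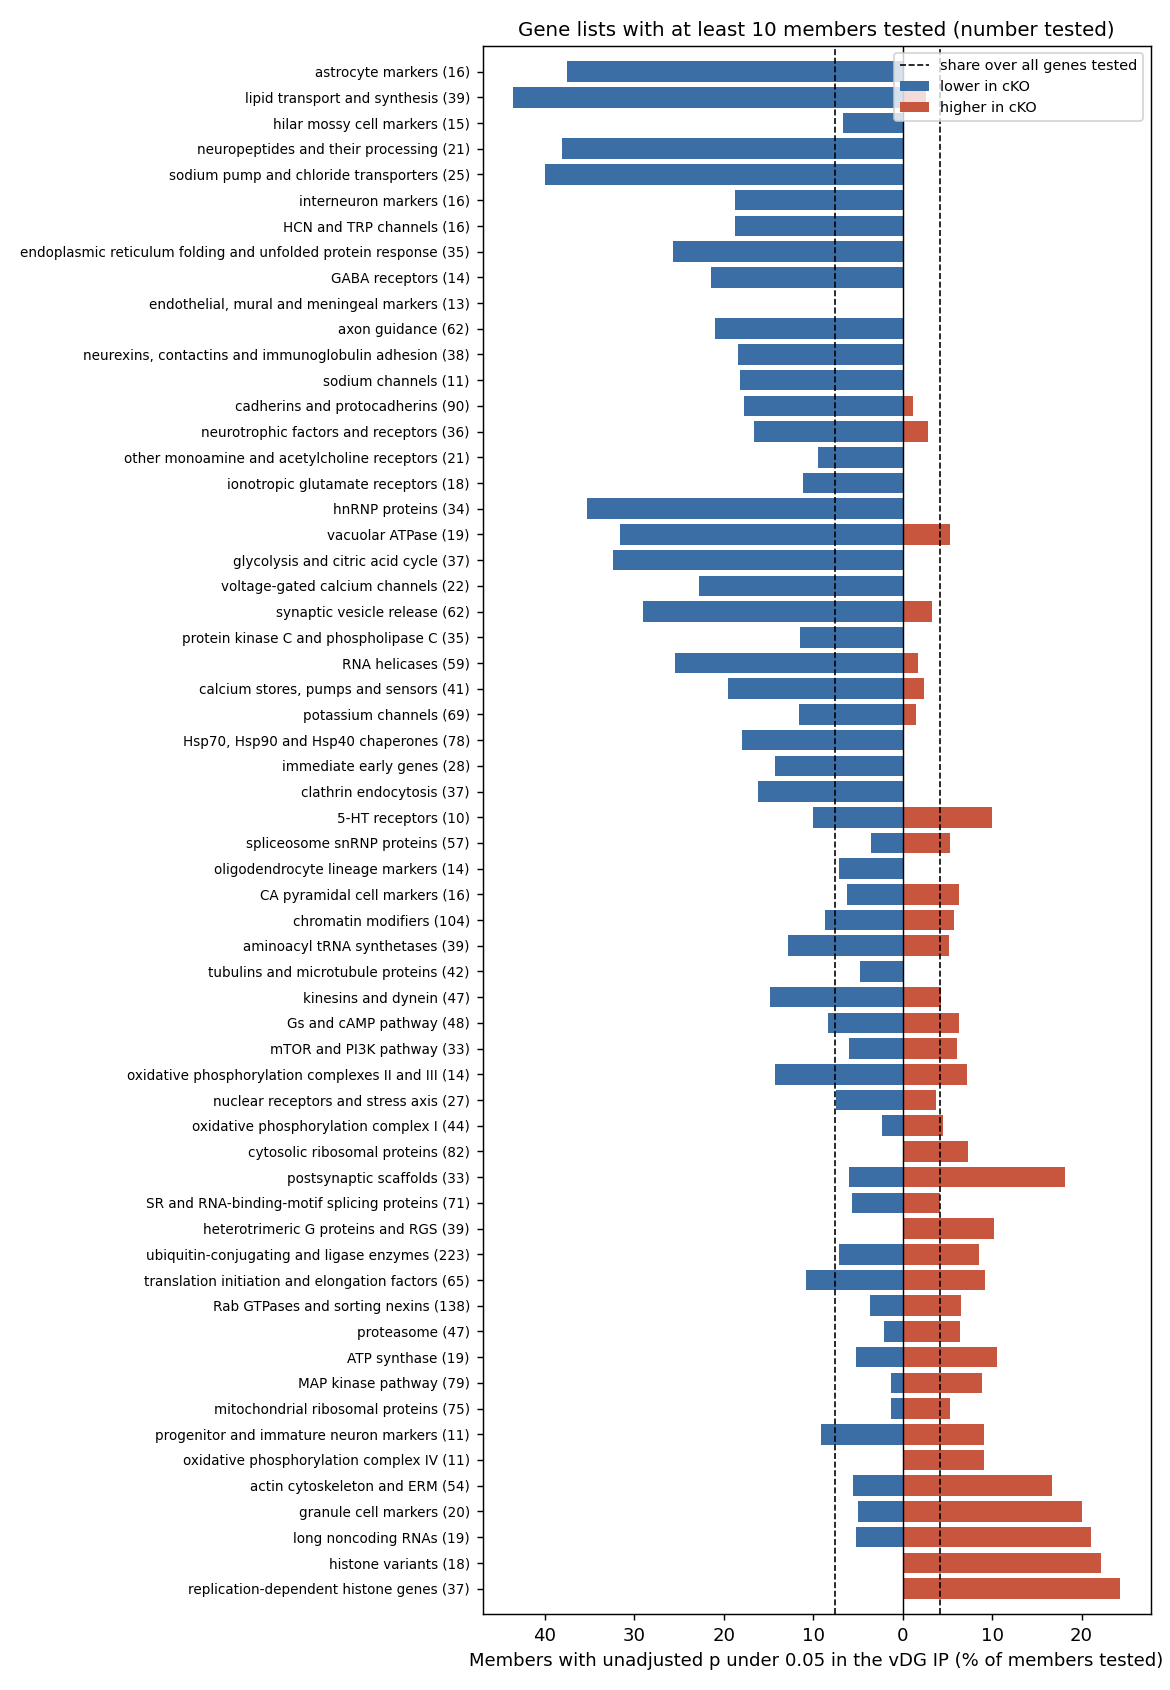
Share of tested members (x axis, %) with an unadjusted p under 0.05 in the vDG IP, lower in cKO to the left (blue) and higher to the right (red), for each gene list with at least 10 members tested (y axis, ordered by median log2 fold change). Dashed lines mark the shares over all genes, 7.57% lower and 4.14% higher.

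Lipid genes are given beside astrocyte markers, since astrocytes express many of them. Of 39 genes of lipid transport and synthesis, 17 were lower at an unadjusted p under 0.05 (43.6%, against 7.57% of all genes) and *Ptgds* was higher, with a median of -0.35. *Fasn*, fatty acid synthase, had 244, 210.4 and 226 CPM in the WT IPs and 129 and 164 in the cKO IPs (log2 fold change -0.63, FDR = 0.116), and *Hmgcs1*, of cholesterol synthesis, had 103, 80.6 and 78.7 CPM in the WT IPs and 48.5 and 61.0 in the cKO IPs (log2 fold change -0.67, FDR = 0.131). None of the lower lipid genes passed in edgeR, and DESeq2 called 7 of them lower. Of 16 astrocyte markers, 6 were lower and none higher at an unadjusted p under 0.05 (no call in edgeR, 4 lower in DESeq2), with a median of -0.49 in the IP and -0.61 in the input. Their summed level was 1505, 1653 and 2095 CPM in the WT IPs and 1287 and 1284 CPM in the cKO IPs, against 6279, 6985 and 6269 CPM in the WT inputs and 3981 and 3788 CPM in the cKO inputs. *Glul*, glutamine synthetase, had 113, 131 and 118 CPM in the WT IPs and 72.4 and 82.9 in the cKO IPs (log2 fold change -0.64, FDR = 0.101). All 16 markers had counts in the IPs, and their part in the lower lipid, pump and glycolysis genes was not tested. In bulk libraries, fewer cells of a type and less RNA per cell cannot be told apart.

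Of the remaining lower genes, *Gmps* makes GMP and had 127, 124 and 132 CPM in the WT IPs and 78.1 and 84.7 in the cKO IPs (log2 fold change -0.65, FDR = 0.0831). *Ppp2r1a*, the scaffold of protein phosphatase 2A, had 295, 235 and 245 CPM in the WT IPs and 135 and 173 in the cKO IPs (log2 fold change -0.75, FDR = 0.0831). *Safb*, which binds scaffold attachment regions and RNA, had 48.7, 56.0 and 62.5 CPM in the WT IPs and 35.6 and 32.4 in the cKO IPs (log2 fold change -0.71, FDR = 0.0987). All cKO values of these genes were below WT. *Anxa6*, which binds membranes with calcium, had 106, 88.8 and 103 CPM in the WT IPs and 49.1 and 63.8 in the cKO IPs (log2 fold change -0.81, FDR = 0.0705). *Kndc1* had 134, 117 and 134 CPM in the WT IPs and 73.1 and 81.6 in the cKO IPs (log2 fold change -0.73, FDR = 0.0705), and *Magee1* had 145.1, 125 and 127 CPM in the WT IPs and 70.7 and 84.9 in the cKO IPs (log2 fold change -0.77, FDR = 0.0705). *AK171960*, a transcript without a position in the annotation used, had 18.96, 18.8 and 18.8 CPM in the WT IPs and 9.81 and 10.1 in the cKO IPs (log2 fold change -0.92, FDR = 0.0705), again with both cKO IPs below WT.

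Interneuron markers were lower in 3 of 16 cases and higher in none (median -0.29), and *Gad2* (ENSMUSG00000026787, chr2:22622205-22693874, plus strand), which makes GABA, passed with 56.4, 65.3 and 66.3 CPM in the WT IPs and 32.6 and 34.0 in the cKO IPs (log2 fold change -0.91, SE 0.15, FDR = 0.0618). Their summed levels, which did not overlap, are given beside the neuropeptide genes, and all 20 markers had counts in the IPs. In the vDG inputs the markers summed to 1370, 1733 and 1653 CPM in WT and 1309 and 1215 CPM in cKO. *Gad2* had 283, 294 and 288 CPM in the WT inputs and 227 and 242 in the cKO inputs. The study found the tag absent from GABAergic interneurons of the dentate gyrus, and carry-over of their RNA into the IPs was not tested. Markers of microglia summed to at most 11.7 CPM in any IP and those of choroid plexus to at most 38.1 CPM, with the genotypes overlapping in both. Granule cell markers were higher in 4 and lower in 1 of 20, with *Stxbp6* at 511, 525 and 496 CPM in the WT IPs and 618 and 618 in the cKO IPs (log2 fold change 0.28, FDR = 0.4). *Xist*, which is made from the inactive X chromosome of females, had 17.9, 4.04 and 3.52 CPM in the WT IPs and 35.7 and 8.82 in the cKO IPs, so its level differed between pools of each genotype and the genotypes overlapped. The called genes *Gprasp1*, *Gprasp2*, *Ddx3x*, *Uba1*, *Pls3*, *Magee1*, *Frmd7* and *Rbm3* lie on the X chromosome, and the part of the sexes pooled in them was not tested.

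The same genes were then read in the whole tissue. In the vDG input, 17 of 15786 genes were higher (0.108%) and 368 lower (2.33%) at an FDR under 0.05, with 4.23% higher and 10.6% lower at an unadjusted p under 0.05. All 50 genes lower in the IP were lower in the input, 38 of them at an FDR under 0.05, and all 10 higher genes were higher, 4 of them at that threshold. Over all genes tested in both, 4891 of 7120 genes below 0 in the IP were below 0 in the input (68.7%), and 5058 of 7063 above 0 were above 0 (71.6%). Libraries of IP and input with the same number deviated together from their group means in replicate 1 (r = 0.479 for WT and 0.518 for cKO, over 8880 genes) but not in WT replicates 2 and 3 (r = -0.169 and -0.339). With 2 cKO libraries, the value for cKO replicate 2 is the same as for cKO replicate 1. The median log2 fold change of the lower genes was -0.83 in the IP and -0.70 in the input, and that of the higher genes 0.66 and 0.49. *Gprasp1* had a log2 fold change of -1.001 in the input (FDR = 0.000949), *Apba2* of -0.97 (FDR = 0.00114) and *Rbm3* of 0.75 (FDR = 0.00515). IP and input are separate libraries, but by the study's methods the input RNA came from part of the same extract before the IP. The sample records give different numbers of mice for them. The inputs are thus no independent repeat. The 6 input calls left without cKO input replicate 1 show that these FDRs too rest on single libraries.

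A test of whether the genotype effect differed between IP and input found no gene among 16093 at an FDR under 0.1 (0%, edgeR interaction test, smallest FDR 1). At an unadjusted p under 0.05 it gave 497 genes (3.09%), and DESeq2 also gave none at an FDR under 0.1. Among the called genes, 8 of the 50 lower and 0 of the 10 higher had an unadjusted p under 0.05 in that test, but they were chosen on the IP values that enter it. They were *Cdh6*, *Gad2*, *Frmd7*, *Cartpt*, *AK171960*, *Rbm5*, *Swi5* and *Sdf2*, in the order of that p. *Gad2* had a log2 fold change of -0.91 in the IP and -0.30 in the input, and *Rbm5* of -0.92 and -0.43. The test treated IPs and inputs as independent and did not pair each IP with its own input. At these sample numbers no change was shown to differ between tagged cells and whole tissue.

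In the dDG inputs (3 WT and 2 cKO libraries), 5 of 15383 genes differed at an FDR under 0.05 (0.0325%), and 1 of the called genes was among them. This was *Swi5*, of recombination repair, with 79.2, 74.0 and 48.0 CPM in the WT IPs and 34.4 and 36.7 in the cKO IPs (log2 fold change -0.91, SE 0.19, FDR = 0.0971) and a log2 fold change of -0.27 in the vDG input (FDR = 0.448) and -1.17 in the dDG input (FDR = 0.0243). The median log2 fold change in the dDG was -0.15 over the 49 lower genes tested there and -0.05 over the 10 higher genes. Of the higher genes, 4 of 10 lay above 0 there, *Htr4* at 0.75 (FDR = 0.0978), *Ift20* at 0.54 (FDR = 0.164), *Rbm3* at 0.37 (FDR = 0.244) and *Ube2e2* at 0.34 (FDR = 0.369). Of the lower genes, 40 of 49 lay below 0. *Gprasp1* stood at -0.02, *Apba2* at -0.15 and *Ddx3x* at 0.06 in the dDG. The difference between regions was not tested for these genes.

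The size of a change also went with the length of the gene. Among 8690 genes that had an annotated exonic length and averaged over 3 in log2 CPM, log2 fold change in the IP and exonic length had a Spearman's rho of -0.21 (taken over genes, which do not stand for replicates). The median log2 fold change was 0.08 in the shortest of 5 equal bins of these genes (median length 2136.5 bases) and -0.08 in the longest bin (11238 bases), and in the input 0.14 and -0.12. The 50 lower genes had a median exonic length of 5974 bases and the 10 higher genes of 2443.5 bases, against 4601 bases over all genes tested with a length. With the length trend removed, all 10 higher genes and 49 of the 49 lower genes with a length were still called. The counts of list members moved more, since over all genes 1037 were then higher and 862 lower at an unadjusted p under 0.05, against 592 and 1082. Of the RNA helicases 4 were then higher and 14 lower, of the chaperones 0 and 11, of the lipid genes 1 and 13, of the hnRNP genes 2 and 11 and of the histone genes 6 and 0. Other lists shifted further. The ubiquitin enzymes had 36 higher and 11 lower (19 and 16 before) and the postsynaptic scaffolds 11 and 2 (6 and 2 before). The MAP kinase pathway had 13 and 1 (7 and 1 before), the ribosomal proteins 11 and 1 (6 and 0 before) and the calcium channels 1 and 2 (0 and 5 before).

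**Figure D5:**
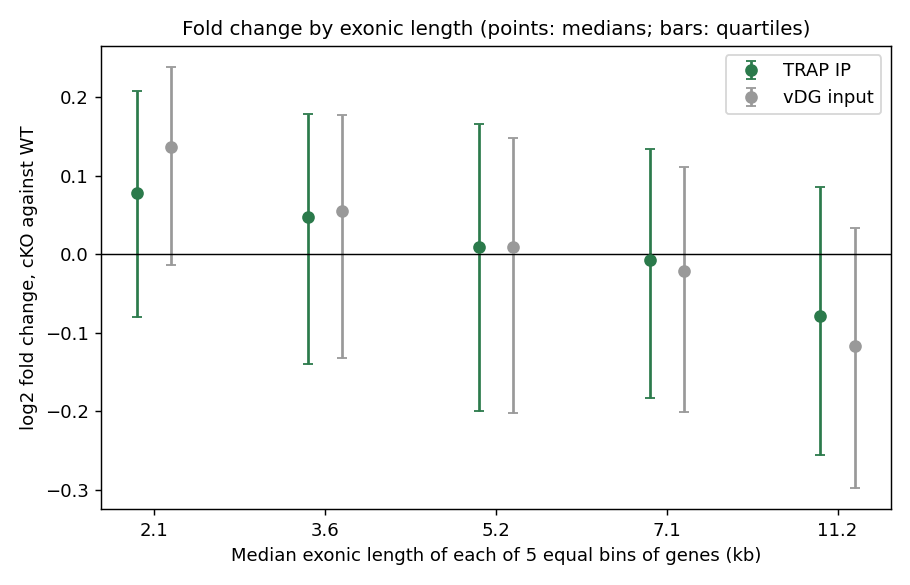
Median log2 fold change between cKO and WT (y axis, bars are quartiles) in the IP (green) and the vDG input (grey) for 5 bins of genes by exonic length (x axis, median of each bin in kb), 1738 genes in each. The medians fell from 0.08 to -0.08 in the IP and from 0.14 to -0.12 in the input.

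The lists were also counted without cKO replicate 1, which lay farthest out on the first principal component (48.3, against -22.8 to 2.58 for the other IPs). With 1 cKO IP left, 199 of all genes were higher and 525 lower at an unadjusted p under 0.05. The lower members were 8 of the RNA helicases, 5 of the hnRNP genes, 6 of the chaperones, 5 of the endoplasmic reticulum folding list, 6 of synaptic vesicle release, 2 of clathrin endocytosis, 4 of glycolysis and 3 of the sodium pump list. They were 11 of the lipid genes, 12 of the cadherins, 9 of axon guidance, 3 of the neuropeptide list and 5 of the astrocyte markers. Of these lists, the cadherins and the lipid genes had 1 higher member each and the others none. The actin list had 6 higher and 2 lower members, the MAP kinase pathway 3 and 2, the ubiquitin enzymes 6 and 6, the Rab and sorting nexin list 2 and 3, the ribosomal proteins 2 and 0, the initiation and elongation factors 2 and 1 and the Gs and cAMP pathway 0 and 1. Of the histone genes 6 were higher, and of the histone variants 0. Without WT replicate 3, the higher and lower members, in lists where either count changed by over 1.5 times, were among others 3 and 4 for the potassium channels, 2 and 3 for the calcium channels, 0 and 4 for the sodium channels, 0 and 1 for the GABA receptors, 10 and 2 for the postsynaptic scaffolds, 6 and 15 for synaptic vesicle release and 2 and 8 for clathrin endocytosis. They were 19 and 8 for the Rab and sorting nexin list, 13 and 3 for the MAP kinase pathway, 5 and 4 for the proteasome and 5 and 0 for the histone genes.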

How the data were processed

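Samples were grouped by their titles. The authors trimmed the reads, aligned them to mm10 with STAR 2.4.2a, removed duplicates with SAMtools 0.1.19-444 and deposited raw counts per gene from HTSeq (union mode, default settings; FastQC 0.11.4 for quality). cDNA was amplified before library preparation, and removing duplicates caps the counts of very abundant genes. The deposited tables of the authors' own comparisons (DESeq2 1.4.5) hold normalized counts, fold changes and p-values, none of which was used. Of these tables only the annotation was read, including the deposited percent GC column, which entered no result. Rows naming no gene, 24.7 to 28.5% of all counts in the IPs, were dropped.

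Counts were fitted in edgeR 4.0.16 (R 4.3.3, limma 3.58.1) with TMM scaling, filterByExpr and the quasi-likelihood test, with genotype as the only term, at an FDR of 0.1 for the IP and the interaction and 0.05 for the inputs. The code was tested on simulated data. DESeq2 1.42.0, other scalings, filters and samples, a replicate block and removal of the length trend (loess, span 0.5, with exonic lengths from GENCODE M21) were alternatives. Gene positions are those of mm10 and promoters those of RefSeq.

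Named were *Htr4*, called genes (values in every library from a mean of 5 CPM), called members and up to 4 members of lowest p in each of 65 lists, and the 2 most abundant of each marker list. Of these lists, that of mitochondrial genome genes had no member in the counts. Members and lists were chosen with earlier results of these data known. List counts without single IPs, the dDG values, the genes at 0, the counts of overlapping genes, the promoter share over genes tested, the shares of all genes with the same direction in IP and input and the counts over parts of lists were added after seeing the data. With 3 against 2 pools the precision is limited, and the part of depth in it was not tested.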

Additional observations from a re-analysis of the deposited data

Results flagged for a closer look

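*Hist2h4*, an H4 histone gene with near-identical copies, was higher in both cKO vDG IPs than in any WT IP (log2 fold change 1.0) but lower in both cKO dDG inputs than in any WT dDG input (log2 fold change -0.33, 3.60, 4.63 and 4.64 CPM in WT and 3.54 and 3.29 CPM in cKO). The 2 comparisons differ in region and in fraction, and the difference was not tested.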

How the results depend on the processing

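The direction of all called IP genes with a value was kept in each of the 14 alternatives that give a fold change, while their number was not stable. These alternatives refit the same counts, in which the groups of each called gene do not overlap, so a kept direction is no further evidence. Against 60 calls, DESeq2 gave 374 (78 higher and 296 lower), library size alone 115, no filter on counts 379, all 15 libraries in one fit 470, removal of the length trend 134 (43 higher and 91 lower) and an FDR of 0.05 gave 0. Leaving out 1 IP gave 0 to 184 calls (184 without WT replicate 1, 0 without WT replicate 2, 127 without WT replicate 3, 0 and 4 without cKO replicates 1 and 2). Without a cKO IP the lone sample is assumed to vary like the WT ones. For the vDG input, against 385 calls, DESeq2 gave 644, no filter 660, and leaving out 1 library 6 to 638 (638, 247 and 235 without WT replicates 1, 2 and 3, 6 and 50 without cKO replicates 1 and 2). For the interaction, against 0 calls, no filter gave 14 and leaving out 1 library 0 to 1. The cause of these shifts was not tested.

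With the replicate block the IP had 59 calls (6 higher and 53 lower), 46 of them shared with the fit without it (the calls of 7 of the 10 higher genes, *Cox8a*, *Cygb*, *Dcakd*, *Lmo4*, *Ptgds*, *Rbm3* and *Ube2e2*, and of 7 of the 50 lower, *Cdh6*, *Frmd7*, *Gpr141*, *Gprasp2*, *Mapk8ip3*, *Rpn1* and *Safb*, were lost), the input 410 and the interaction 0, and the block with the length trend removed gave 87 in the IP. Same-numbered IPs did not deviate together (r = -0.155 for replicate 1 and -0.192 for replicate 2, over 8880 genes). Neither did IP and input of WT replicates 2 and 3 (r = -0.169 and -0.339), which by the methods share an extract. The check therefore cannot decide whether same-numbered WT and cKO samples share more than a number. List medians moved by more than their replicate spread in 82 cases and by less in 814. Depth limits the genes at 0 counts, and for *Gpr141* and *Cdh6* bounds and no fitted folds are given.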
